A study of Homo sapiens with 4 samples.

Results

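A set of 10 genes of secreted chemokines and cytokines was followed through 4 single-cell RNA libraries: CXCL1, CXCL2, CXCL3, CXCL5 and CXCL8, CCL2 and CCL20, and the cytokines IL6, IL32 and LIF. They were taken by gene name from the 43296 names of the deposited gene table, and all 10 were found there, under 21 features. The libraries came from H1299 cells, grown from a human lung carcinoma of the non-small cell kind, and HCT116 cells, grown from a human colorectal carcinoma, at passage 5 to 10. Each line was given either DMSO, the solvent, or DAC+SB. DAC (decitabine) blocks DNA methyltransferases and was present at 500 nM over 72 h, and SB939 blocks histone deacetylases and was present at 500 nM over 18 h. For the DAC+SB cells the medium was renewed each 24 h. Each of the 4 combinations was 1 library, so there was no replicate and no test, and every interval is a 95% interval for counting error only. Each inhibitor was used only together with the other, so their parts cannot be told apart.

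Chemokines are small secreted proteins that draw leukocytes along a gradient through receptors coupled to G proteins. CXCL1, CXCL2, CXCL3, CXCL5 and CXCL8 act on CXCR1 or CXCR2 and attract neutrophils, CCL2 attracts monocytes through CCR2, and CCL20 attracts lymphocytes and dendritic cells through CCR6. IL6 and LIF signal through the shared receptor subunit gp130, encoded by IL6ST, and the transcription factor STAT3, while IL32 is an inflammatory cytokine found in primates but not in mice. In epithelial and tumour cells many of these genes are induced by NF-kB, which is held inactive by IkB proteins until a signal such as TNF or IL-1 arrives.

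The libraries held between 3578 cells (H1299 DMSO) and 4327 cells (HCT116 DAC+SB) and between 38927267 and 64524196 counts. The median count per cell lay between 15784.5 and 17369.5 in 3 libraries and was 8449 in HCT116 DAC+SB, the shallowest. Of 15158 barcodes, 131 occurred in 2 or more libraries. Levels are given in CPM, the usual count scaled by library total, here the total of gene and transposable element (TE) counts, and a ratio is DAC+SB over DMSO. In the check of the labels, 10 markers of H1299 summed to 4269 CPM (DMSO) and 3282 CPM (DAC+SB) in H1299, above the 1612 and 2707 CPM of the corresponding HCT116 libraries. The order of the DAC+SB sums rested on VIM, at 2282 and 1151 CPM in H1299 against 47.05 and 265 CPM in HCT116. LGALS1 alone of the list was higher in HCT116, at 1360 and 2351 CPM against 1336 and 1833 CPM in H1299. The 10 markers of HCT116 summed to 352 CPM in H1299 DMSO and 700 CPM in HCT116 DMSO, but to 1033 CPM in H1299 DAC+SB and 906 CPM in HCT116 DAC+SB. KRT18, at 676 and 325 CPM, held most of that H1299 DAC+SB sum. KRT8 (307 and 229 CPM), LGALS4 (1.60 and 1.08 CPM) and CDH17 (0.529 and 0.385 CPM) were also higher in H1299 DAC+SB than in HCT116 DAC+SB. The rest of the list was higher in HCT116 DAC+SB. EPCAM stayed apart, with 0.0155 and 4.47 CPM in H1299 DMSO and DAC+SB against 80.7 and 45.2 CPM in HCT116. Of 10 leukocyte markers, 9 were in the table. They summed to 0.357, 18.1, 2.12 and 11.7 CPM (H1299 DMSO, H1299 DAC+SB, HCT116 DMSO, HCT116 DAC+SB), with most of the H1299 DAC+SB sum in TYROBP at 9.45 CPM. PTPRC, the pan-leukocyte gene, had 0, 8, 0 and 5 counts in the same order. The 8 fibroblast and endothelial markers summed to 0.325, 23.0, 8.43 and 21.5 CPM in that order. Their part in the results was not tested.

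In H1299, 6 of the 10 genes reached 100 counts in the higher library. Of these, only CCL20 was at least 4-fold higher with DAC+SB (1 of 6, or 16.7%, against 11.0% of 14610 genes) and none was at least 4-fold lower (0.349% of all genes), although LIF lay at the edge. In HCT116, 4 genes reached 100 counts, and CXCL8 and IL32 were at least 4-fold higher (2 of 4, against 9.63% of 13539 genes), with none lower (3.69%). CXCL3, CXCL8 and IL32 reached 100 counts there only with DAC+SB, and LIF only with DMSO. CCL20 in H1299 also reached 100 counts only with DAC+SB. Such genes entered through their higher library, so these shares and the medians below depend in part on the limit. The same limit was set for all genes. The median log2 ratio of the genes so measured was -0.59 in H1299 and 2.33 in HCT116, against -0.07 and -0.23 over all genes. Only CXCL3, IL32 and LIF were measured so in both lines, so the medians cover partly different genes. With so few genes these medians are a description. The 10 genes together held 75.1 CPM (73.0 to 77.3) in H1299 with DMSO and 99.6 CPM (97.2 to 102) with DAC+SB. In HCT116 the sums were 5.99 CPM with DMSO and 23.6 CPM (22.1 to 25.2) with DAC+SB, below both H1299 libraries. At a limit of 2-fold, CCL20 was higher (18.3% of all genes) and CXCL2 and LIF lower (7.34%) in H1299. In HCT116 CXCL3, CXCL8 and IL32 were then higher (16.2%) and LIF lower (2706 of 13539 genes, or 20%).

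The lines differed in these genes with either treatment. With DMSO 5 genes reached 100 counts, and CXCL1, CXCL2 and IL32 were at least 4-fold higher in H1299 (3 of 5, against 9.92% of 13796 genes), with none lower (8.11%). These 3 genes reached 100 counts in H1299 alone. The CXCL1 log2 ratio of 3.40 rested on numbered features of 48 and 61 counts unlisted in HCT116 DMSO. Over features listed in both libraries it was 1.81, inside 4-fold. With 9 counts put in for each unlisted feature it was 2.26, past 4-fold. With DAC+SB 6 genes reached 100 counts. Of these, CXCL2, CCL20 and IL32 were at least 4-fold higher in H1299 (3 of 6, against 8.97% of 14875 genes). CXCL3 and CXCL8 were at least 4-fold lower (2 of 6, against 4.65%). CXCL2 and CCL20 reached 100 counts in H1299 alone, and CXCL3 and CXCL8 in HCT116 alone. CXCL3 was 4.02-fold lower (3.11 to 5.23), a log2 ratio of -2.01. Over features listed in both libraries its log2 ratio was -1.60, inside 4-fold, since a feature of 52 counts was unlisted in H1299 DAC+SB, and without the cell with most CXCL3 counts in each library it was -1.70, also inside.

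**Figure D1:**
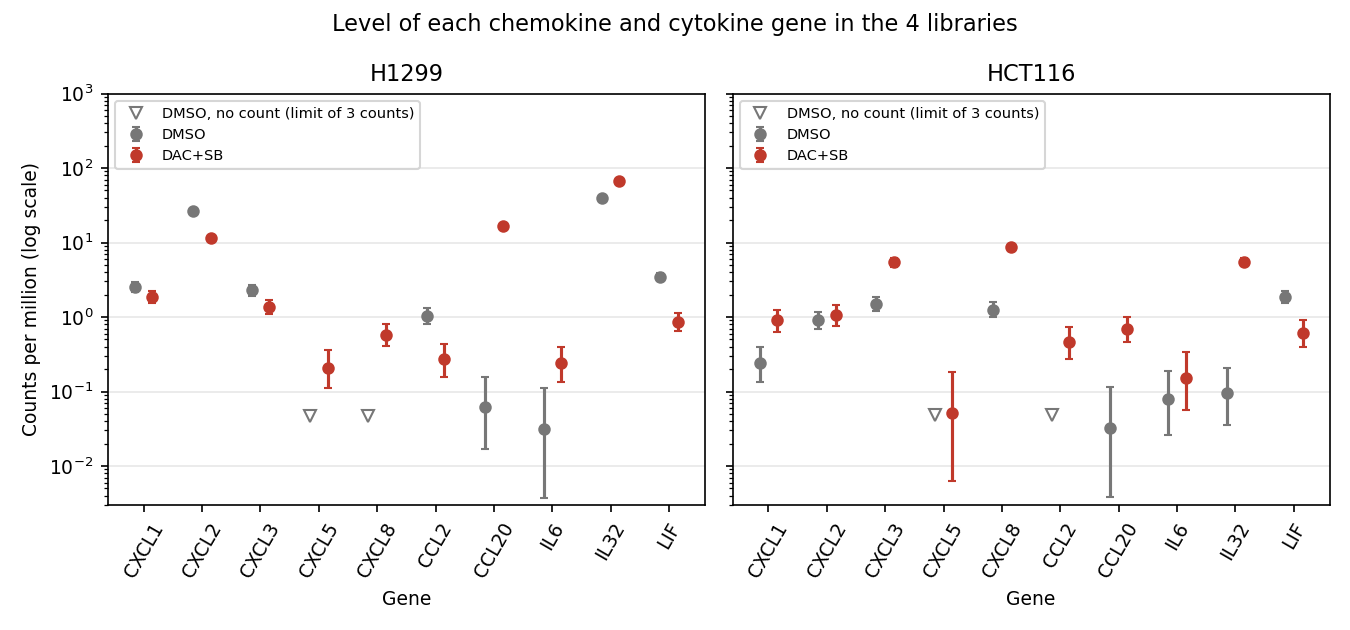
Level of each gene in CPM (vertical axis, log scale) in H1299 (left) and HCT116 (right), grey for DMSO and red for DAC+SB. Points are single libraries, bars are 95% Poisson intervals and open triangles mark the level of 3 counts where no count was found. CCL20 in H1299 and IL32 and CXCL8 in HCT116 stand well above their DMSO values, whereas LIF is lower with DAC+SB in both lines.

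The sequence just upstream of the start was examined for 8 genes with a RefSeq entry (build GRCh38.p14, 250 bases before the annotated start). CCL2 and LIF were absent from the promoter set used here, which does not mean that they lack a RefSeq annotation. The motif GGANTTTCC, a core of many NF-kB sites, was searched on both strands. It was present in the window of 7 of the 8 genes, or 7 of their 9 entries, and in 1.45% of 35116 promoters of the same length. A match is a run of letters and not a measured binding site, and the CXCL genes are related copies, so their matches are not independent. For all of these genes but CXCL1 the RefSeq start lay inside the longer gene span of GENCODE. A match before that start can therefore lie within the span. The windows of CXCL1, CXCL2 and CXCL3 are shown because the 3 genes are close copies, with the motif in capitals. They lie at chr4:73869143-73869392 (plus strand), chr4:74099196-74099445 (minus strand) and chr4:74038690-74038939 (minus strand).
CXCL1: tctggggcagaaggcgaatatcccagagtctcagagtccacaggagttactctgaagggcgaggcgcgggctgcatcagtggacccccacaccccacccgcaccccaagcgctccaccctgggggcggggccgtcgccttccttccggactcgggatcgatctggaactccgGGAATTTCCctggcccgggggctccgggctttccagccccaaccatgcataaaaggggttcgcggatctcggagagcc
CXCL2: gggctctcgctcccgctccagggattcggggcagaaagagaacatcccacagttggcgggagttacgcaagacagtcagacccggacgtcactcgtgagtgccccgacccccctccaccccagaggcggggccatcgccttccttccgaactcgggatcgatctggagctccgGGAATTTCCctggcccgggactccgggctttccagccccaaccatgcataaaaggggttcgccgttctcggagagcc
CXCL3: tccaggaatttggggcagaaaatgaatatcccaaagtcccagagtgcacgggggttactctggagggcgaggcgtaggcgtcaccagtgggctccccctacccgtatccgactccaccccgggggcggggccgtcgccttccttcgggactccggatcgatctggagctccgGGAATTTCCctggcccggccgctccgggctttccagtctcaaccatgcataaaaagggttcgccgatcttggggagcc
All 3 windows carry the letters GGAATTTCC on the strand of the gene, beginning 78, 77 and 78 bases before the start. Over a global alignment CXCL1 and CXCL3 shared 210 of 250 bases, CXCL1 and CXCL2 185 and CXCL2 and CXCL3 184. The same letters begin 90 bases before the start of CXCL5 and 91 before that of CXCL8, and IL6 has a match 72 bases before its start. The 3 windows hold 18, 20 and 19 CG dinucleotides, the sites that DNA methyltransferases modify, against a median of 11 over all promoters.

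The windows of CXCL8, CCL20 and IL32 are shown because these were the genes at least 4-fold higher with DAC+SB in 1 of the lines at 100 counts. They lie at chr4:73740319-73740568, chr2:227813592-227813841 and chr16:3065153-3065402, all on the plus strand, and the capitals again mark the NF-kB motif.
CXCL8: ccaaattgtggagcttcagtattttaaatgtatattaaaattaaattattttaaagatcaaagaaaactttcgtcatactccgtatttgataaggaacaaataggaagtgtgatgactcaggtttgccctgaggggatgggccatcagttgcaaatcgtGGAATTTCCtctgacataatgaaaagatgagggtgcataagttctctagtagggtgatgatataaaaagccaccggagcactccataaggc
CCL20: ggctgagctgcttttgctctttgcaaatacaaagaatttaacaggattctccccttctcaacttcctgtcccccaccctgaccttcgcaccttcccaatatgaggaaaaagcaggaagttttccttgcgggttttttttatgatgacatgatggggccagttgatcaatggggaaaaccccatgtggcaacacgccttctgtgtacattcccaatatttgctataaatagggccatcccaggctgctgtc
IL32: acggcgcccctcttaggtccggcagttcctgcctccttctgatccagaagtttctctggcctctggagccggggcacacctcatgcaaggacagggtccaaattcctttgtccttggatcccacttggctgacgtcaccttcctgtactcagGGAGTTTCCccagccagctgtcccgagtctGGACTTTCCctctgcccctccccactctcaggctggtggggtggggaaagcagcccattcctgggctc
These windows are poorer in CG dinucleotides, with 4, 3 and 6. CXCL8 also holds TGACTCA, a match to the AP-1 motif TGANTCA (6.57% of promoters, both strands), 137 bases before the start. A TATAAA box on the gene's strand (6.80% of promoters) begins 31 bases before the start of CXCL8 and 29 bases before that of CCL20. The motif GGANTTTCC is not in the CCL20 window, but NF-kB sites of other letters were not searched for, so the window may still hold one. IL32 holds 2 matches, at 98 and 68 bases, and its second RefSeq entry, which starts downstream, holds none.

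Among the CXC chemokines that attract neutrophils, CXCL1, CXCL2 and CXCL3 were all lower with DAC+SB in H1299. In HCT116 CXCL1 and CXCL3 were higher, and CXCL8 was higher in both lines. CXCL2 (chr4:74097035-74099293, GENCODE 29 on GRCh38) had 1708 counts or 26.5 CPM (25.2 to 27.8) in H1299 DMSO and 709 counts or 11.4 CPM (10.5 to 12.2) in H1299 DAC+SB. It had 57 counts or 0.910 CPM (0.689 to 1.18) in HCT116 DMSO and 41 counts or 1.05 CPM (0.756 to 1.43) in HCT116 DAC+SB. The level was thus 2.33-fold lower (2.13 to 2.55) with DAC+SB in H1299, where the intervals of the levels did not overlap. The log2 ratio in HCT116 was 0.21 (-0.40 to 0.82), an interval that includes 0. With DMSO CXCL2 was 29.1-fold (22.3 to 38.6) higher in H1299 than in HCT116.

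CXCL1 (chr4:73869393-73871242) had 163 and 116 counts in H1299 DMSO and DAC+SB, which are 2.53 CPM (2.15 to 2.95) and 1.86 CPM (1.53 to 2.23), a log2 ratio of -0.44 (-0.80 to -0.09). In HCT116 it had 15 and 35 counts, 0.239 CPM (0.134 to 0.395) and 0.899 CPM (0.626 to 1.25), a log2 ratio of 1.91 (1.00 to 2.89). That HCT116 ratio rested on a numbered feature with 24 counts that was not listed with DMSO. Over features listed in both libraries it was 0.24, and with 9 counts put in for the unlisted feature it was 1.23. CXCL3 (chr4:74036589-74038807) had 147 and 85 counts in H1299, 2.28 CPM (1.92 to 2.68) and 1.36 CPM (1.09 to 1.68), a log2 ratio of -0.74 (-1.15 to -0.35). In HCT116 CXCL3 had 94 and 213 counts, 1.501 CPM (1.21 to 1.84) and 5.47 CPM (4.76 to 6.26), so it was 3.65-fold higher (2.85 to 4.70) and just inside the 4-fold limit. As a mean over cells of the per-cell level, the HCT116 log2 ratio was 2.41 in place of 1.87 and passed that limit. That mean gives shallow cells more weight, and 1 HCT116 DAC+SB cell of 3741 counts held 47 of the 213 counts. The mean without that cell is not given. The counts of CXCL2 and CXCL3 may share a source of error, which was not tested. Of the 50-base windows in the first 300 bases of CXCL2 transcripts, 28.2% also occur in CXCL3 transcripts and 0.424% in CXCL1 transcripts, and the treatment of reads that fit several genes was not given in the sources used here.

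CXCL8 (chr4:73740506-73743716), also called interleukin-8, had no listed count in 3578 H1299 DMSO cells, where its numbered feature was unlisted and may have held up to 9 counts. It had 36 counts or 0.577 CPM (0.404 to 0.798) in H1299 DAC+SB, at least 12.4-fold higher against a limit of 3 counts per library, if that unlisted feature is taken as 0. In HCT116 it had 79 counts or 1.26 CPM (0.998 to 1.57) with DMSO and 339 counts or 8.71 CPM (7.81 to 9.69) with DAC+SB, 6.90-fold higher (5.39 to 8.94). CXCL8 was thus highest in HCT116 DAC+SB and lowest in H1299 DMSO, the library in which CXCL2 was highest. Its level in HCT116 DAC+SB was 15.1-fold (10.7 to 21.9) above H1299 DAC+SB. CXCL5 (chr4:73995642-73998779) had no count in either DMSO library, 13 counts in H1299 DAC+SB and 2 in HCT116 DAC+SB. The H1299 value is at least 4.48-fold higher if unlisted features are taken as 0, and no ratio was formed in HCT116.

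**Figure D2:**
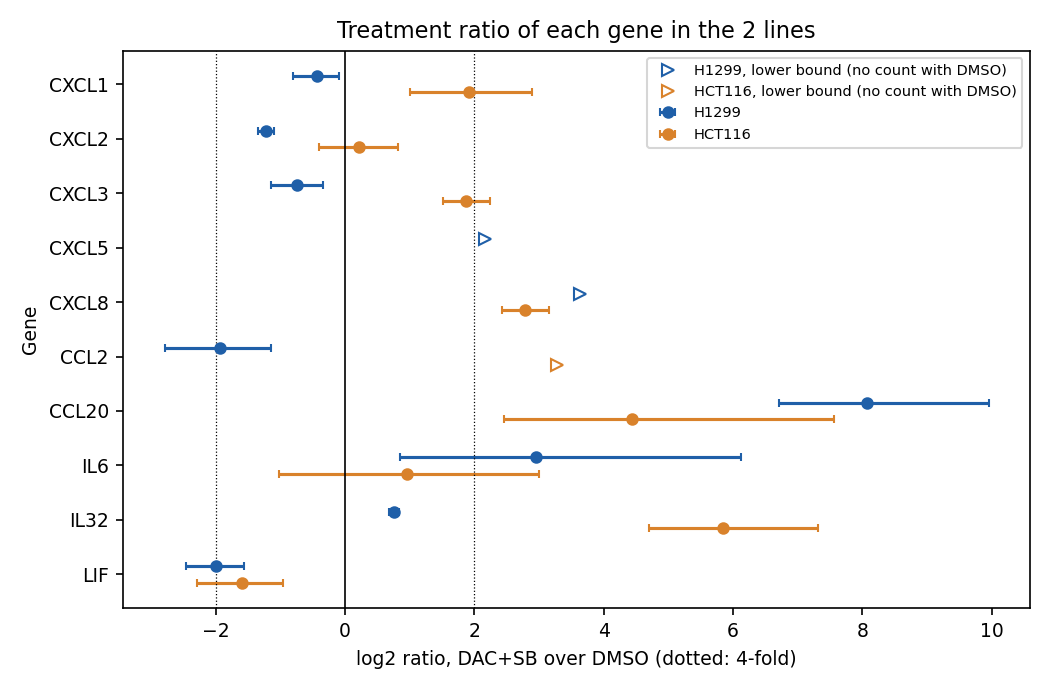
The log2 ratio of DAC+SB over DMSO (horizontal axis) for each gene, blue for H1299 and orange for HCT116, with exact 95% intervals for counting error and dotted lines at 4-fold. Open triangles are lower bounds for genes with no listed count with DMSO, with unlisted features taken as 0. CCL20 in H1299 lies at 8.07, IL32 in HCT116 at 5.84, and CXCL1 and CXCL3 lie on opposite sides of 0 in the lines.

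Among the CC chemokines, CCL20 had the highest ratio of the 10 genes in H1299. CCL20 (chr2:227805739-227817564) had 4 counts or 0.0620 CPM (0.0169 to 0.159) in H1299 DMSO and 1041 counts or 16.7 CPM (15.7 to 17.7) in H1299 DAC+SB. The level was 269-fold higher (105 to 989), a log2 ratio of 8.07. A numbered feature held 806 of the 1041 counts and was not listed with DMSO. Over features listed in both libraries the log2 ratio was 5.92, and with 9 counts put in for the unlisted feature it was 6.37. In HCT116 CCL20 had 2 counts with DMSO and 27 with DAC+SB, 0.0319 CPM (0.00387 to 0.115) and 0.694 CPM (0.457 to 1.01), which is 21.7-fold higher (5.46 to 188). Over features listed in both HCT116 libraries its log2 ratio was 2.01 in place of 4.44. The H1299 log2 ratio exceeded that of HCT116 by 3.63 (1.12 to 6.14), and the DAC+SB levels differed 24.0-fold (16.4 to 36.7). CCL2 (chr17:34255218-34257203) had 67 and 17 counts in H1299 DMSO and DAC+SB, 1.04 CPM (0.805 to 1.32) and 0.272 CPM (0.159 to 0.436). That is 3.81-fold lower (2.21 to 6.93), but the log2 ratio was -0.57 in place of -1.93 without a feature of 41 counts listed only with DMSO. With 9 counts put in for that feature in H1299 DAC+SB the log2 ratio was -1.32. In HCT116 CCL2 had 0 and 18 listed counts, at least 9.65-fold higher if its numbered feature, unlisted in both HCT116 libraries, is taken as 0.

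IL32 (chr16:3065297-3082192) was higher with DAC+SB in both lines, from very different starting levels. It had 2533 counts or 39.3 CPM (37.7 to 40.8) in H1299 DMSO and 4134 counts or 66.2 CPM (64.2 to 68.3) in H1299 DAC+SB, 1.69-fold higher (1.61 to 1.77). In HCT116 it had 6 counts or 0.0958 CPM (0.0352 to 0.208) with DMSO and 214 counts or 5.50 CPM (4.79 to 6.28) with DAC+SB, 57.4-fold higher (25.9 to 158). H1299 was above HCT116 by 8.68 (7.55 to 10.1) on the log2 scale with DMSO and by 3.59 (3.39 to 3.80) with DAC+SB, so the order of the lines stayed and the gap was smaller. Over features listed in both libraries these values were 6.67 and 3.17, and with 9 counts put in for each unlisted feature 7.36 and 3.53. In H1299 a second numbered feature with 1050 counts was listed only with DAC+SB. The first numbered feature had 1905 and 2066 counts. Over features listed in both libraries the H1299 log2 ratio was 0.33 in place of 0.75. With 9 counts put in for the unlisted feature it stayed at 0.75. In HCT116 the numbered feature with 127 counts was listed only with DAC+SB, and without it the log2 ratio was 4.54 in place of 5.84. The meaning of a feature's number was not given in the sources used here.

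LIF and IL6 are the gp130 cytokines of this set, and only IL6 had few counts in every library, at most 15. LIF (chr22:30240447-30246851), known for holding stem cells undifferentiated, was lower with DAC+SB in both lines. It had 223 and 54 counts in H1299, 3.46 CPM (3.02 to 3.94) and 0.865 CPM (0.650 to 1.13), and was 3.996-fold lower (2.96 to 5.48). In HCT116 it had 117 and 24 counts, 1.87 CPM (1.55 to 2.24) and 0.617 CPM (0.395 to 0.917), and was 3.03-fold lower (1.94 to 4.92). The log2 ratios of the lines differed by -0.40 (-1.16 to 0.37), an interval that includes 0. No numbered LIF feature was listed in any library. IL6 (chr7:22725884-22732002) had 2 and 15 counts in H1299 and 5 and 6 in HCT116. Its H1299 ratio was 7.75 (1.80 to 69.9), and the HCT116 ratio of 1.93 (0.491 to 7.998) was not distinguishable from 1 at this depth.

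Each gene was counted in a minority of cells. Without thinning, 60.9% of H1299 DMSO and 58.7% of H1299 DAC+SB cells had a count of at least 1 of the 10 genes, against 8.64% and 12.2% in HCT116. With each cell thinned to 3300 counts the H1299 shares were 20.8% (19.45 to 22.13) and 22.5% (21.21 to 23.92), which overlap. The thinned HCT116 shares were 1.56% with DMSO and 5.91% with DAC+SB. Shares of cells with a count are given after each cell was thinned to 3300 counts, which left out 402 HCT116 DAC+SB cells. No cell type known to lack these genes was in the same library, so counts from free RNA were not measured. CCL20 had a count in 0 of 3578 H1299 DMSO cells, 108 of 3726 H1299 DAC+SB cells (2.90%, 2.38 to 3.49), 1 HCT116 DMSO cell and 11 HCT116 DAC+SB cells. Without thinning, 302 of 3726 H1299 DAC+SB cells (8.11%) had a count. Of these, 152 had 2 or more counts and 21 had 10 or more. The 21 cells held 409 of the 1041 counts, and the highest single cell had 56. CCL20 was thus concentrated in few treated H1299 cells, at 3.45 counts per cell with a count.

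IL32 was spread more widely. After thinning 10.8% (9.82 to 11.9) of H1299 DMSO cells and 16.2% (15.0 to 17.4) of H1299 DAC+SB cells had a count, and 37.4% and 46.8% without thinning. In HCT116 the thinned shares were 0.0273% (1 cell) and 1.94% (1.53 to 2.42). The HCT116 DAC+SB cells held 1.08 counts per cell with a count and never more than 3, so the 214 counts came from 198 cells. CXCL2 had a count in 8.50% (7.60 to 9.46) of thinned H1299 DMSO cells and 3.35% (2.80 to 3.98) of H1299 DAC+SB cells, a lower share as well as a lower level.

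CXCL8 had a count in 0.191% (0.0770 to 0.394) of thinned HCT116 DMSO cells and 2.17% (1.73 to 2.67) of HCT116 DAC+SB cells. CXCL3 had a count in 0.465% (0.271 to 0.743) and 1.07% (0.772 to 1.44) of the same cells. A single HCT116 DAC+SB cell, of 3741 counts, held 47 CXCL3, 30 CXCL8 and 9 CXCL2 counts. Without the cell with most CXCL3 counts in each library the HCT116 log2 ratio of CXCL3 was 1.55, and without the cell with most CXCL8 counts that of CXCL8 was 2.77. The 10 cells with most CXCL3 counts held 48.4% of its HCT116 DAC+SB counts, against 21.3% with DMSO.

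**Figure D3:**
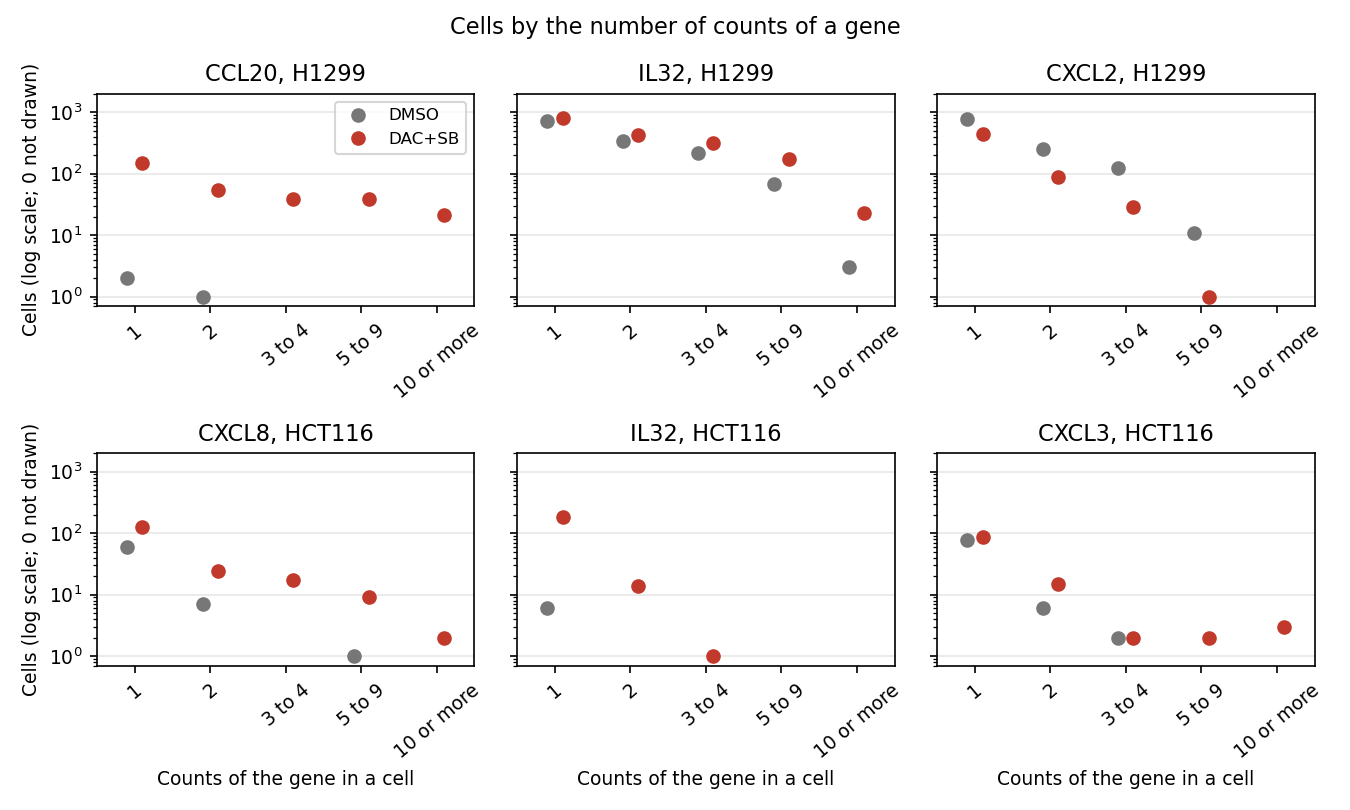
Number of cells (vertical axis, log scale) by the counts of a gene in the cell (horizontal axis), grey for DMSO and red for DAC+SB, without thinning. In H1299 DAC+SB 21 cells had 10 or more CCL20 counts, whereas IL32 in HCT116 DAC+SB never passed 3 counts in a cell.

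Some of the genes were found in the same cells. In each library all pairs with at least 50 cells for 1 gene and 10 for the other were compared. Only some of these pairs are given here. Of the 108 HCT116 DAC+SB cells with CXCL3, 15 (13.9%, 7.99 to 21.9) also had CXCL8, against 3.91% (3.35 to 4.54) of cells without CXCL3. CXCL2 was found in 7 of these 108 cells (6.48%, 2.65 to 12.9) and in 0.521% (0.327 to 0.788) of the others. CXCL2 and CXCL3 share sequence. For this pair no thinned value is given, since fewer than 10 thinned HCT116 DAC+SB cells had a CXCL2 count. The cells with CXCL3 were somewhat deeper, at a median of 9723 counts against 8401. In HCT116 DMSO 3 of 84 cells with CXCL3 (3.57%, 0.743 to 10.1) had CXCL8, against 1.79% (1.38 to 2.28) of the others, which overlap. CXCL2 was in 0 of the 84 (0 to 4.30%) and 1.32% of the others, also within the interval. After thinning to equal depth, 7 of 85 cells with CXCL8 (8.24%, 3.38 to 16.2) had CXCL3, against 0.911% (0.636 to 1.26) of cells without it. In H1299 DAC+SB 11 of 302 cells with CCL20 (3.64%, 1.83 to 6.42) had CXCL8, against 0.321% (0.161 to 0.574) of the others, at median depths of 18819 and 15514. IL32 was in 60.3% (54.5 to 65.8) of those 302 cells and 45.6% (43.9 to 47.3) of the others. After thinning to equal depth the IL32 shares were 18.5% (11.7 to 27.1) and 16.1% (15.0 to 17.4), which overlap. For CXCL8 no thinned value is given, since fewer than 10 thinned H1299 DAC+SB cells had a CXCL8 count. In thinned H1299 DMSO cells IL32 was in 11.2% (7.87 to 15.3) of cells with CXCL2 and 10.8% (9.74 to 11.9) of cells without, which also overlap. CXCL3, which shares sequence with CXCL2, was in 3.29% (1.59 to 5.97) of the same cells with CXCL2 and 0.641% (0.397 to 0.979) of those without. These intervals do not overlap. CXCL1 was in 1 of the 304 cells with CXCL2 (0.329%, 0.00833 to 1.82) and 0.733% (0.470 to 1.09) of those without, which overlap. In H1299 DAC+SB 0 of 125 thinned cells with CXCL2 (0 to 2.91%) and 0.333% of the others had CXCL3, which overlap. Genes most alike across cells had low correlations. In 3578 thinned H1299 DMSO cells CXCL2 was nearest to G0S2 (Pearson r of 0.070), HIST1H2AE (0.068) and NFKBIA (0.065), and IL32 to CALD1 (0.092), TAGLN2 (0.091) and TPM1 (0.085). In 3726 H1299 DAC+SB cells IL32 was nearest to ATP5G1 (0.092), DYNLL1 (0.090) and COX6C (0.087). In sparse counts from 1 library values of this size are no finding.

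The TE share was compared between cells with and without a count after thinning, and was itself taken over all counts of a cell. In H1299 DAC+SB the median TE share was 2.63% in cells with CCL20 and 2.55% in cells without, 2.53% and 2.56% for IL32, and 2.80% and 2.55% for CXCL2. In HCT116 DAC+SB it was 5.79% in 85 cells with CXCL8 and 4.85% in 3840 cells without, and 5.26% and 4.85% for IL32. The median mitochondrial share in the same order was 7.84% and 8.92% for CCL20, 8.19% and 8.99% for IL32 and 9.30% and 8.86% for CXCL2 in H1299, 18.2% and 17.9% for CXCL8, and 16.9% and 17.9% for IL32 in HCT116. Cells with CXCL8 were shallower than cells without, at a median of 8251 against 9178 counts, whereas cells with each other gene given here were deeper. All these values are medians over cells of 1 library, given as a description.

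Other chemokines and cytokines were counted from lists of known genes. Of 31 other chemokines, 19 had a count in H1299 and 24 in HCT116, but only 3 and 2 reached 100 counts, of which 2 and 1 were at least 4-fold higher and none lower. CCL26, an eosinophil attractant, went from 0 to 174 listed counts in H1299 (at least 59.9-fold higher if features unlisted with DMSO are taken as 0) and from 29 to 237 in HCT116 (13.2-fold). Over features listed in both libraries its H1299 log2 ratio was at least 4.14, and its HCT116 log2 ratio was 2.10, which is not a bound. CXCL16 was 4.69-fold higher in H1299, whereas its log2 ratio in HCT116 was -0.89 (-1.04 to -0.74). Of 33 other cytokines, 12 reached 100 counts in H1299, with 4 at least 4-fold higher and none lower, and 11 in HCT116, with 5 higher and none lower. Over all genes 11.0% were higher and 0.349% lower in H1299, and 9.63% and 3.69% in HCT116. The median log2 ratio of the list was 0.39 and 1.00. IL16, made as a precursor and known as a lymphocyte attractant, went from 1 to 427 counts in H1299 (log2 ratio 8.79, 6.30 to 14.1) and from 7 to 3881 in HCT116 (9.80, 8.76 to 11.1). IL16 had a count in 28.8% of HCT116 DAC+SB cells and 0.164% of HCT116 DMSO cells without thinning, and its log2 ratios over features listed in both libraries were 5.83 and 6.41. IL18, a member of the IL-1 family, went from 14 to 1551 counts in H1299 (6.84, 6.09 to 7.71), or 5.46 over such features. CSF3, the granulocyte colony factor, went from 1 to 256 counts in HCT116 (8.69, 6.20 to 14.0).

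Most receptors of chemokines, cytokines and related inflammatory ligands that reached 100 counts lay inside 4-fold. Of 30 receptor genes, 13 reached 100 counts in H1299, with 3 higher and none lower, and 14 in HCT116, with 2 higher and 2 lower. The medians were 0.24 and -0.18. LTBR, the lymphotoxin receptor, had opposite ratios, at 0.279 and 7.40 CPM in H1299 (26.5-fold higher) and 61.7 and 5.29 CPM in HCT116 (log2 ratio -3.54). TNFRSF1B was 5.93-fold higher in H1299 and 29.9-fold in HCT116, CXCR4 was 9.46-fold higher in HCT116, and TNFRSF1A had a log2 ratio of -2.05 there. These counts stand beside 11.0% higher and 0.349% lower over all genes in H1299, and 9.63% and 3.69% in HCT116.

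The NF-kB genes themselves lay inside 4-fold, with NFKB1 as the exception. All 16 genes of NF-kB subunits, kinases and inhibitors reached 100 counts in both lines, with median log2 ratios of -0.35 and 0.05, none at least 4-fold higher and 1 of 16 lower in each line (0.349% and 3.69% of all genes). That gene was NFKB1, which encodes the p105 precursor of p50. It went from 1929 to 463 counts in H1299 (29.9 to 7.42 CPM, log2 ratio -2.01, -2.16 to -1.86) and from 977 to 67 in HCT116 (15.6 to 1.72 CPM, -3.18, -3.56 to -2.82). Of 17 other NF-kB targets, 14 reached 100 counts in H1299, with 3 higher (11.0% of all genes) and none lower, and 11 in HCT116, with 1 higher (9.63%) and 1 lower (3.69%), at medians of 0.02 and 0.19. LCN2, lipocalin 2, went from 0 to 888 listed counts in H1299, at least 306-fold higher if features unlisted with DMSO are taken as 0, or at least 5.99 on the log2 scale over features listed in both libraries. TNFAIP2 was 40.1-fold higher there, whereas its log2 ratio in HCT116 was -0.90 (-1.08 to -0.73). In HCT116 ICAM1 was 4.04-fold higher and CCND1 had a log2 ratio of -2.60.

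The STAT3 pathway, which IL6 and LIF use, had 2 of 11 genes at least 4-fold higher in H1299 (11.0% of all genes) and 1 of 12 in HCT116 (9.63%), shares near those of all genes, with none lower and medians of -0.08 and 0.02. SOCS1, a feedback inhibitor of JAK kinases, was 16.1-fold higher in H1299 and 12.4-fold in HCT116, and the phosphatase gene PTPN6 was 62.7-fold higher in H1299, whereas its log2 ratio in HCT116 was -0.60 (-0.73 to -0.47). A list of 13 genes held regulators of AU-rich mRNA decay, CEBP transcription factors and the transcription factors ATF3 and EGR1. In H1299 1 was higher (11.0% of all genes) and none lower, and in HCT116 2 were higher (9.63%) and 1 lower (3.69%), at medians of 0.03 and -0.28. CEBPA was 8.66-fold higher in H1299 and 5.94-fold in HCT116, ATF3 was 4.30-fold higher in HCT116, and ZFP36L1, which speeds the decay of AU-rich mRNA, had a log2 ratio of -2.27 in HCT116.

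**Figure D4:**
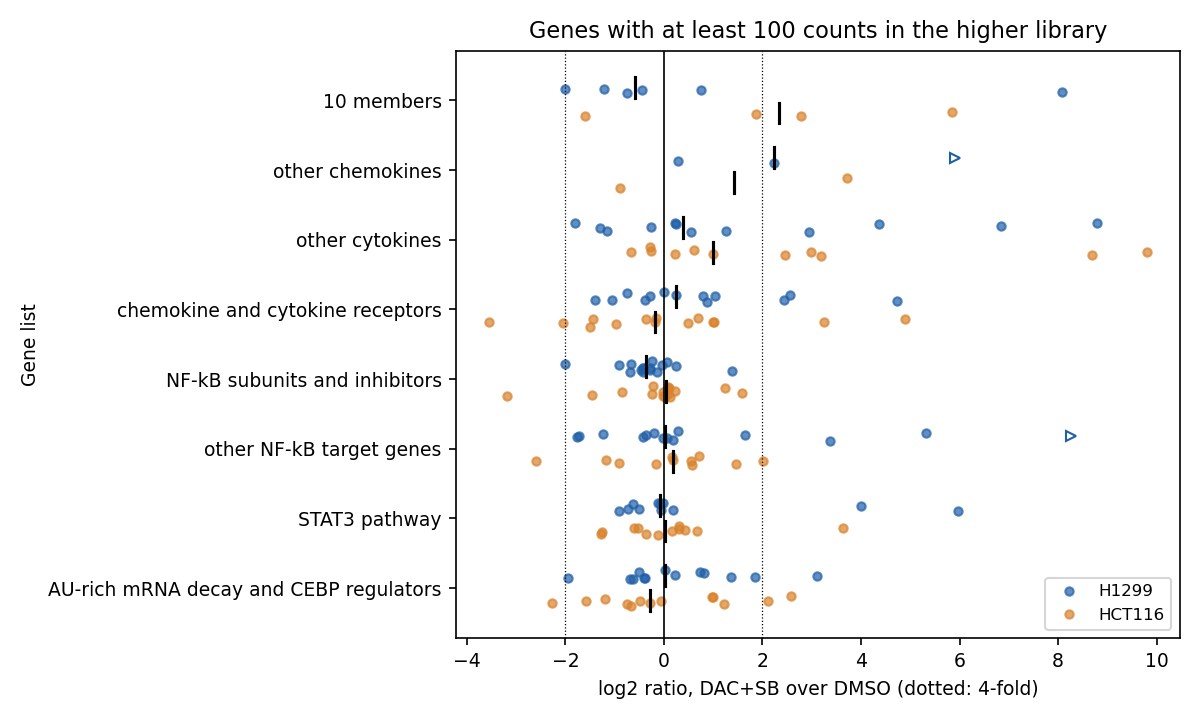
The log2 ratio of DAC+SB over DMSO (horizontal axis) by list, for genes that reached 100 counts in a library, blue for H1299 and orange for HCT116. Each point is a gene, black bars are medians, triangles are lower bounds with unlisted features taken as 0, and dotted lines mark 4-fold. The medians of the lists of regulators lie near 0, from -0.35 to 0.05 for the NF-kB genes, and single genes lie far from them.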

How the data were processed

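The 5′ single-cell libraries were sequenced on 10x Genomics chemistry, and the authors deposited whole-number counts in 2 tables, per gene feature and per TE locus in each cell, with only counts of at least 1 listed. Per the submitters' processing notes, CASAVA and STAR and the build GRCh38 (hg38) were used. The counter, its annotation and the filter on cells were not given in the sources used here, so whether the counts are of unique molecules is not known. Every cell name carries its library.

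Features were summed by the name before the first bar, and all 15289 cells were used. Of 18591 numbered features, the lowest listed count was 10 in every library, so a numbered feature absent from a library is not known to be 0. The 2419 names that join several genes were left out of the comparisons. Ratios carry exact conditional binomial intervals, levels Poisson intervals and shares Clopper-Pearson intervals. Differences between lines use the normal approximation to log counts. Genes were compared at 4-fold where 1 of the libraries reached 100 counts, so a gene could enter through its higher library alone. A gene with no listed count was set to 3 counts per library, and its ratio is a bound only if its unlisted numbered features are taken as 0. No doublet caller was run. Ratios and thinning were checked on simulated data. Analyses used Python 3.11.15, numpy 2.4.6 and scipy 1.17.1.

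The 10 genes and all lists were chosen with earlier results of these data known. Named genes were all 10 genes, at most the 2 highest and 2 lowest past 4-fold in each list and line, and the 3 genes most correlated with each gene found in at least 200 thinned cells, among genes in at least 5% of cells. VIM, LGALS1, EPCAM, KRT18, KRT8, LGALS4, CDH17, TYROBP and PTPRC were named after their values were seen.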

Additional observations from a re-analysis of the deposited data

Results flagged for a closer look

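CXCL1 and CXCL3 were marked because their ratios lay on opposite sides of 0 in the lines, with both intervals away from 0. Subtracting the log2 ratio of HCT116 from that of H1299 gave -2.35 (-3.29 to -1.41) for CXCL1 and -2.61 (-3.13 to -2.09) for CXCL3. The intervals cover counting error only, and with 1 library per group the difference was not tested. The CXCL1 value rests on 15 and 35 HCT116 counts. Its HCT116 log2 ratio was 0.24 over features listed in both libraries and 1.23 with 9 counts put in for the unlisted feature. For CXCL3 that ratio was 1.46 over such features and 1.55 without the cell with most CXCL3 counts in each library.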

How the results depend on the processing

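Of the 10 genes, 1 was at least 4-fold higher and 0 lower in H1299, and 2 and 0 in HCT116, by ratio with no test. At a minimum of 20 counts the number higher in H1299 was 2 of 8, as CXCL8 joined CCL20. No share over all genes is given for that minimum, within or between the lines, so these counts are a description. At 2-fold, 2 genes were lower in H1299 (CXCL2 and LIF) and 1 in HCT116 (LIF). Over numbered features listed in both libraries of a line, 1 gene was higher in HCT116, since IL32 then had fewer than 100 counts. Without the cell with most counts of each gene, an alternative chosen after seeing the data, 1 gene was lower in H1299, LIF, whose log2 ratio of -1.998 with that cell lay just inside the limit. Between the lines, 3 genes were higher and 0 lower in H1299 with DMSO, and 3 and 2 with DAC+SB, and the same alternatives were run there after seeing the data. At 20 counts 1 gene, CXCL8, was lower with DMSO. With DAC+SB only CXCL8 remained lower, 1 gene, over shared numbered features, with unlisted features at 9 counts and without the cell with most counts. No other alternative changed these numbers by more than 1.5 times. Of 14 log2 ratios of single genes within a line, 7 moved outside their counting interval over shared numbered features, 3 with unlisted features set to 9 counts (also chosen after seeing the data) and 2 as a mean over cells. None moved outside it with joined names added, another total, or cells of high depth or above 25% mitochondrial counts left out, and none with an interval away from 0 changed sign under any of these alternatives. Of 19 thinned shares, 12 moved when cells were thinned to 2000 counts and 18 without thinning. Genes under about 20 counts, such as IL6 and CXCL5, are limited by depth.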
